A study of Mus musculus with 6 samples.

Results

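The alveolar epithelium, which includes alveolar type 2 (AT2) cells, sends growth factors to the fibroblasts, vessels and myeloid cells around it. Genes for 10 such factors were examined here in sorted AT2 cells: *Pdgfa*, *Pdgfb*, *Vegfa*, *Vegfb*, *Vegfc*, *Kitl*, *Csf1*, *Csf2*, *Angptl4* and *Edn1*. They were chosen by name, as the rows of the deposited count table that carry these symbols, and make up 10 of its 24421 genes. All 10 were among the 16723 genes that passed the expression filter. Poly(A) RNA came from FACS-sorted, lineage-labeled AT2 cells, with 3 control and 3 caBmpr1a libraries. Control mice were *Sftpc-CreERT2/+; R26-tdTomato/+*. The caBmpr1a mice were *Sftpc-CreERT2/+; R26-tdTomato/R26-caBmpr1a*, so their second *Rosa26* allele encodes a constitutively active BMP receptor type 1a. Both groups carried the same Cre driver and the tdTomato label, which tamoxifen switches on, on a C57BL/6 background. In each group, 2 samples came from 12-week-old mice and 1 from 16-week-old mice (control replicate 2 and caBmpr1a replicate 1). Recombination is driven from the *Sftpc* gene, and the label and the receptor recombine as separate alleles, so a sorted labeled cell need not carry the active receptor.

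Each of these factors has its own receptors on other cells. PDGF-A signals to Pdgfrα+ fibroblasts next to AT2 cells, and PDGF-B to Pdgfrβ+ pericytes. VEGF-A binds the receptors encoded by *Kdr* and *Flt1* on capillary endothelium, VEGF-B binds *Flt1*, and VEGF-C mainly *Flt4*, the receptor of lymphatic vessels. KIT ligand (*Kitl*) feeds Kit+ cells such as mast cells and some capillary endothelium. CSF1 and CSF2 (GM-CSF) maintain macrophages, and GM-CSF from the alveolar epithelium is required for alveolar macrophages to clear surfactant. ANGPTL4 inhibits lipoprotein lipase, and endothelin 1 (*Edn1*) constricts vessels. Several of these genes are also made by endothelial cells, *Pdgfb* and *Edn1* above all.

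The libraries held between 21554249 and 28440227 counts, and 3 counts, the smallest number taken as detected, corresponded to between 0.0976 and 0.138 CPM, the counts scaled to library size with TMM factors. That floor covers counting error only. The labels do not say whether a sample is 1 mouse or a pool, and p-values measure the spread between these libraries. Control replicate 1 and caBmpr1a replicate 3 had 176 and 146 CPM on 4 Y-linked genes, whereas the other 4 libraries had 0. Values without this pair are given beside the main results. Within each group the samples all differed from each other in age or in the presence of these reads, so they were not repeat libraries of the same source. *Id1*, a direct target of BMP signaling, was at 19.5 ± 1.17 CPM in control and 237 ± 153 CPM in caBmpr1a libraries (SD, n = 3), and 5 of 7 listed BMP targets (*Id1*, *Id3*, *Smad6*, *Smad9* and *Atoh8*) passed the test as higher. *Sftpc*, which defines AT2 cells, was at 48764 ± 9845 and 43992 ± 1342 CPM, and the sum of 12 AT2 markers was 154200 to 170900 CPM in control and 110700 to 135900 CPM in caBmpr1a libraries, with a median log2 fold change of -0.43 and 0 of 12 passing. Markers of other cells were present at low levels. Summed over 12 endothelial markers, control libraries ranged from 447 to 681 CPM and caBmpr1a libraries from 599 to 898 CPM. Over 12 mesenchymal markers the ranges were 261 to 381 and 434 to 557 CPM. In these lists 11 of 12 and 12 of 12 genes had a positive log2 fold change, and none passed the test. At an unadjusted p under 0.05 in edgeR, 7 endothelial and 5 mesenchymal markers were higher, against 4.62% of all genes tested. Of the AT2 markers, 6 were lower, against 5.05%. All caBmpr1a values lay above all control values for 1 endothelial and 4 mesenchymal markers, against 7% of all genes. They lay below for 7 AT2 markers, against 10.1%. Over 12 markers of type 1 (AT1) cells the sums were 3571 to 4339 and 4029 to 4634 CPM. For 16 immune markers they were 1993 to 2708 and 316 to 1416 CPM, mostly from *Lyz1*, a paralog of the AT2 gene *Lyz2*. Without *Lyz1* the sums were 68.2 to 81.9 and 60.4 to 173 CPM, and 14 of the 16 genes had a positive log2 fold change (median 0.73), with 0 passing. Sums were 6.09 to 16.3 and 12.0 to 18.1 CPM for 8 innate lymphoid and mast cell markers. For 6 platelet markers they were 7.07 to 12.5 and 5.90 to 13.3 CPM, and for 8 airway markers 723 to 916 and 840 to 1220 CPM. Of the 7 airway markers tested, 4 had a positive log2 fold change (median 0.17). Only *Tppp3*, a gene of ciliated cells, passed, as higher (log2 fold change 1.85, edgeR adjusted p = 0.0165). The basal cell keratin *Krt5* had no counts in any library. In such bulk samples, fewer cells of a type and less RNA per cell cannot be told apart. The part of other cells' RNA in the results that follow was not tested.

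None of the 10 growth factors passed the test between the groups. Of the 10, 0 had an adjusted p under 0.05 in edgeR (quasi-likelihood F test, Benjamini-Hochberg over 16723 genes, n = 3 libraries per group), where 0.251% of all genes tested were called, 0.239% as higher and 0.0120% as lower. The members with the smallest p-values were *Pdgfa* and *Pdgfb*, both at higher values in caBmpr1a libraries, and *Csf2* and *Angptl4*, both at lower values. At an unadjusted p under 0.05, 2 members were higher and 2 were lower, against 4.62% and 5.05% of all genes tested, or 9.67% in either direction. In 2 members (*Pdgfa* and *Pdgfb*) all caBmpr1a values lay above all control values, against 7% of all genes, and in 2 (*Csf2* and *Vegfb*) all lay below, against 10.1%. Groups without overlap in either direction made up 17.1% of all genes. DESeq2 and limma-voom also called 0 of the 10. The median log2 fold change of the 10 was 0.26, beside -0.0096 over all genes tested.

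**Figure D1:**
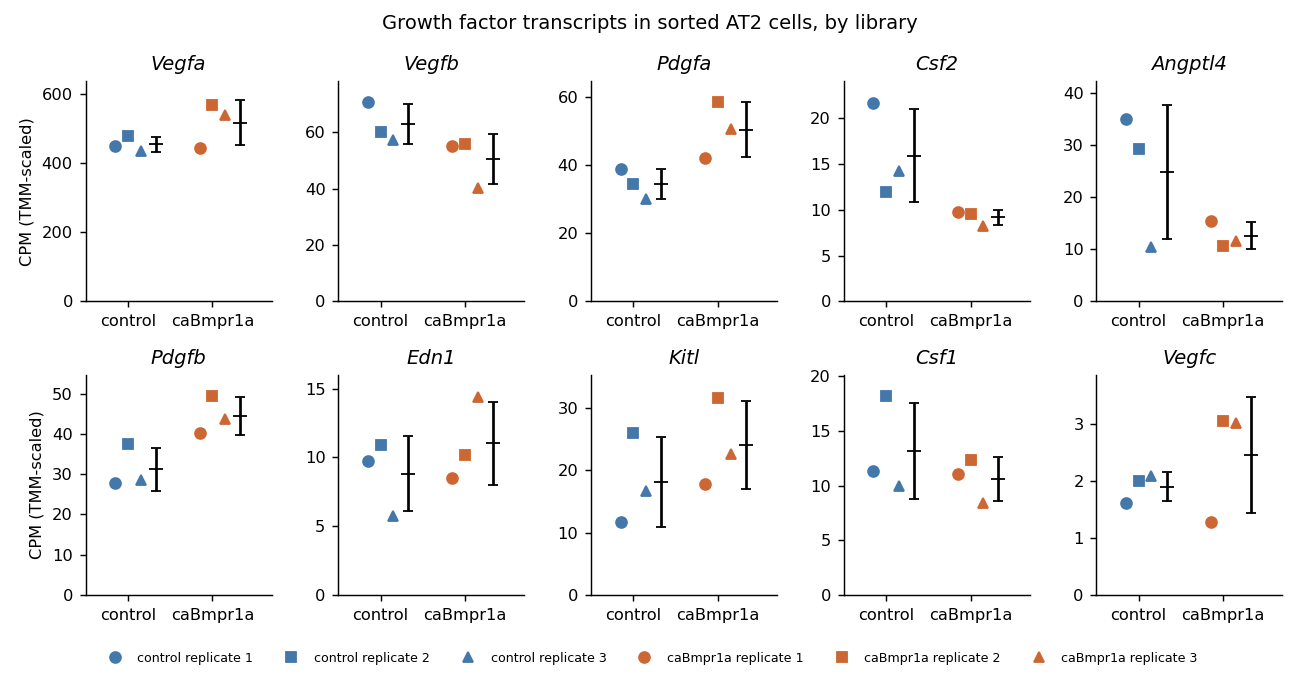
Each panel shows the TMM-scaled CPM (y axis, from 0) of a growth factor in the 3 control and 3 caBmpr1a libraries, with 1 symbol per library and the mean ± SD in black, in the order of their level per kilobase in control. The groups are separate for *Pdgfa*, *Pdgfb*, *Vegfb* and *Csf2* and overlap for the other 6.

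Per kilobase of exon, which allows levels of different genes to be compared, *Vegfa* was the most abundant of the 10 by far. It was at 109 ± 5.14 CPM per kilobase in control libraries (SD, n = 3), above 96.9% of the genes tested. *Vegfb* followed at 49.0 ± 5.55 and *Pdgfa* at 33.8 ± 4.29 CPM per kilobase. These 3 did not overlap with each other or with the genes below them in control libraries. *Csf2* (15.4 ± 4.90), *Angptl4* (13.1 ± 6.77) and *Pdgfb* (10.6 ± 1.81) formed a middle level in which neighbours overlapped. *Edn1*, *Kitl* and *Csf1* stood at 3.76 ± 1.16, 3.33 ± 1.32 and 2.97 ± 0.990 CPM per kilobase and overlapped as well, and *Vegfc* was lowest at 1.01 ± 0.137. In caBmpr1a libraries *Pdgfa*, at 49.5 ± 7.96 CPM per kilobase, had a higher mean than *Vegfb*, at 39.3 ± 6.87, but their values overlapped, and in caBmpr1a replicate 1 *Pdgfa* (41.5) was below *Vegfb* (43.0). *Pdgfb* (15.1 ± 1.59) then stood above *Csf2* (8.89 ± 0.801) and *Angptl4* (6.63 ± 1.34). The last 4 kept their order. The counts do not separate isoforms, so the matrix-bound and soluble forms of VEGF-A and PDGF-A, or membrane and soluble KIT ligand, are counted as a single gene each.

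The PDGF ligands had the smallest p-values among the members with higher values in caBmpr1a. The authors' table places *Pdgfa* at 138976972 to 138994953 of chromosome 5 (mm10, reverse strand), and all positions given for genes are from that table and build. It had 38.7, 34.5 and 30.0 CPM in control replicates 1, 2 and 3 and 42.2, 58.4 and 50.4 CPM in caBmpr1a replicates 1, 2 and 3. The lowest caBmpr1a library was thus above the highest control library, and the 2 groups were closest between control replicate 1 and caBmpr1a replicate 1. The fold was 1.46 (95% interval from 1.15 to 1.87, log2 fold change 0.55, standard error 0.15, edgeR adjusted p = 0.311). In the 4 libraries without Y-linked reads the log2 fold change was 0.68 (edgeR adjusted p = 0.13), and the log2 ratio between the remaining pair was 0.38.

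*Pdgfb* (chromosome 15, 79995876 to 80014808, reverse strand) had 27.9, 37.4 and 28.5 CPM in the control libraries and 40.2, 49.4 and 43.6 CPM in the caBmpr1a libraries. Here too the groups did not overlap, although control replicate 2 came close to the lowest caBmpr1a library. The fold was 1.42 (95% interval from 1.12 to 1.81, log2 fold change 0.51, edgeR adjusted p = 0.347), with a log2 fold change of 0.48 in the 4 libraries (edgeR adjusted p = 0.253) and a log2 ratio of 0.64 in the remaining pair. For both genes an exact two-sided permutation test gave p = 0.1, the smallest that 3 libraries against 3 allow. The balance between the ligands differed by less than the spread between libraries. Of the summed per-kilobase level of *Pdgfa*, *Pdgfb*, *Pdgfc* and *Pdgfd*, *Pdgfa* took 74.1 ± 3.61% in control and 74.5 ± 1.42% in caBmpr1a libraries (exact permutation test, two-sided, p = 0.9, n = 3). *Pdgfb* took 23.4 ± 3.61% and 22.9 ± 1.02%, and *Pdgfc* and *Pdgfd* the small remainder.

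Promoter windows were read for the members from RefSeq (GRCm38.p6, 250 bases before to 50 after a gene's start), and 8 of the 10 genes matched, with *Pdgfb* and *Angptl4* unmatched. Those of *Pdgfa* (chr5:138994895-138995194), *Vegfb* (chr19:6987602-6987901) and *Csf2* (chr11:54249850-54250149), all on the reverse strand, are shown because these are the matched genes whose groups were separate. Capitals mark CCGCCC on either strand, the core of the SP1 GC box.

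Pdgfa: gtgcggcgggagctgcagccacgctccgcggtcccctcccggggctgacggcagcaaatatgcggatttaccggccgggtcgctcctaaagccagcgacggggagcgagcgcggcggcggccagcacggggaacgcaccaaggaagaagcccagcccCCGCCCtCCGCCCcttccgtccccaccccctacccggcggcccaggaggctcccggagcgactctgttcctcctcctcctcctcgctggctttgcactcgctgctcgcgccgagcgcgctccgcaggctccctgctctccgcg

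Vegfb: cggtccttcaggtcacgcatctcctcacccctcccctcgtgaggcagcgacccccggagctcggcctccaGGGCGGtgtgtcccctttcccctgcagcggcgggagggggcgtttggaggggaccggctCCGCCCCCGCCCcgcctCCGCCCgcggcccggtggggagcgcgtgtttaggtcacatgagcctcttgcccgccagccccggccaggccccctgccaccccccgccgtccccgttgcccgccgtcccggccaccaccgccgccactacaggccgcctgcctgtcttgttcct

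Csf2: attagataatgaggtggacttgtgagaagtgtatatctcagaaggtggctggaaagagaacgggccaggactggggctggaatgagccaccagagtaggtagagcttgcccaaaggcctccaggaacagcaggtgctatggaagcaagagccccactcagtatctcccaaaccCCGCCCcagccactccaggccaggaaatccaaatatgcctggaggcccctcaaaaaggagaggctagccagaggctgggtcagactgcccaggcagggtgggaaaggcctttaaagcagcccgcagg

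The windows differed in base composition. The GC content was 73.3% for *Pdgfa* and 75.3% for *Vegfb*, with 2 and 4 copies of CCGCCC, and 56.7% for *Csf2*, with 1 copy, beside a median of 52.7% over 32851 windows. In all, 5 motifs were searched on both strands, and the other 4 had no match in these 3 windows, so no match overlapped another motif. Over the 10 windows of the 8 matched members, GGCGCC, a GC-rich core bound by SMAD1/5, was found in 1 (*Vegfc*), against 11.9% of all windows. ACGTG, the core of the hypoxia response element, was found in 2, against 19.6%. These were *Edn1* and a second start of *Vegfa* that lies inside the gene, and not the first start of *Vegfa*. CCGCCC was in 9 windows, with *Pdgfa* and *Vegfa* counted 2 times each, against 35.7%. TATAAA was in 1 (*Kitl*), against 13.6%, and TGAGTCA, the AP-1 site, in 0, against 5.2%. The comparison with all windows was not matched for GC content. These are matches of letters in short windows.

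Among the VEGF ligands, *Vegfa* (chromosome 17, 46016993 to 46032377, reverse strand) was nearly level between the groups. It had 449, 477 and 435 CPM in the control libraries and 443, 569 and 539.5 CPM in the caBmpr1a libraries. Replicate 1 of caBmpr1a lay within the control values and the other 2 above them. The fold was 1.14, with a 95% interval from 0.915 to 1.42 (edgeR adjusted p = 0.688). *Vegfb* (chromosome 19, 6982472 to 6987651, reverse strand) had 70.8, 60.1 and 57.4 CPM in the control libraries and 55.2, 55.8 and 40.2 CPM in the caBmpr1a libraries. All caBmpr1a values were below all control values, but 2 of them by little. The fold was 0.802 (95% interval from 0.626 to 1.03, log2 fold change -0.32, edgeR adjusted p = 0.564). The difference leaned on the pair with Y-linked reads, which held the highest and the lowest library. In the other 4 libraries the log2 fold change was -0.049, and without caBmpr1a replicate 3 it was -0.14, while the pair alone had a log2 ratio of -0.81. *Vegfc* (chromosome 8, 54077532 to 54186454, forward strand), at 28 to 93 reads per library, had 1.61, 2.01 and 2.09 CPM in control and 1.28, 3.06 and 3.03 CPM in caBmpr1a libraries. Replicate 1 of caBmpr1a was the lowest of all 6 and the other 2 were the highest, so the fold of 1.29 had a 95% interval from 0.648 to 2.57 (edgeR adjusted p = 0.816).

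Within the VEGF family, the share of *Vegfa* was higher and that of *Vegfb* lower in every caBmpr1a library than in any control library. *Vegfa* took 65.0, 69.4 and 68.4% of the summed per-kilobase level of *Vegfa*, *Vegfb*, *Vegfc*, *Figf* (VEGF-D) and *Pgf* in control libraries and 69.6, 73.8 and 77.4% in caBmpr1a libraries. The lowest caBmpr1a share was just above the highest control share. The means were 67.6 ± 2.33% and 73.6 ± 3.92%, a difference of 6.01 percentage points (exact permutation test, two-sided, p = 0.1, n = 3, the smallest this design allows). It was between 4.10 and 8.02 points with each library left out, 2.75 points where counts were not divided by gene length, and 2.79 points in the 4 libraries that lack Y-linked reads, a setting chosen after seeing the data. The share of *Vegfb* was 30.4 ± 2.59% in control and 23.5 ± 4.70% in caBmpr1a libraries, and its caBmpr1a values (28.2, 23.6 and 18.8%) were all below its control values (33.3, 28.5 and 29.4%). Since *Vegfa* and *Vegfb* make up most of the sum, their shares are not separate results. The small shares of *Figf* (means 1.289 and 1.855%) and *Pgf* (0.113 and 0.277%) were also higher in every caBmpr1a library.

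**Figure D2:**
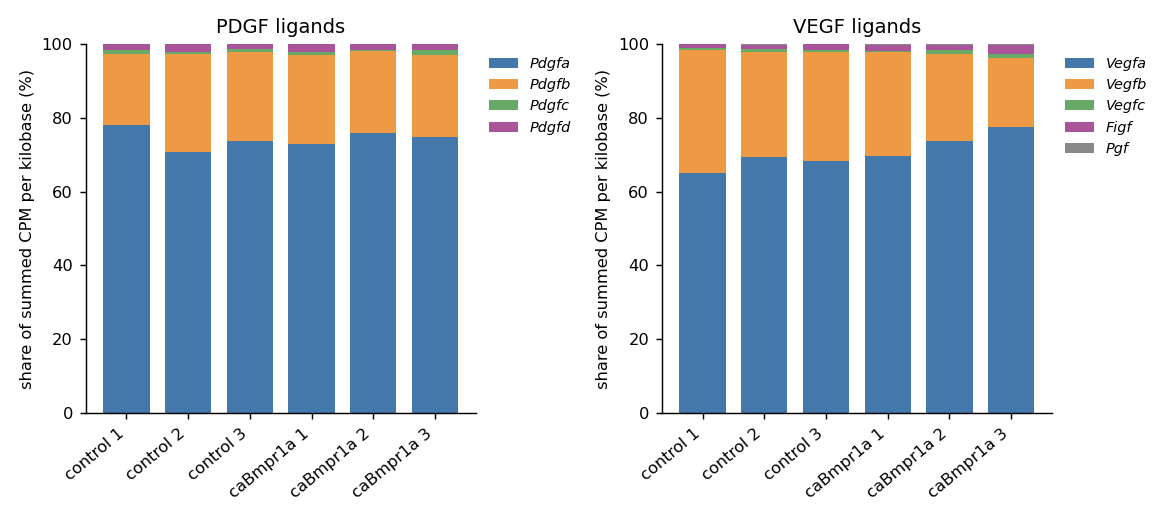
Stacked bars give the share (%) of each ligand in the summed CPM per kilobase of its family, for PDGF (left) and VEGF (right), with 1 bar per library. *Pdgfa* and *Vegfa* hold most of their family in every library, and the share of *Vegfa* is between 65.0 and 69.4% in control and between 69.6 and 77.4% in caBmpr1a libraries.

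Of the factors for myeloid cells, only *Csf2* had groups that did not overlap. It is on chromosome 11, 54247270 to 54249899, reverse strand, and was covered by 213 to 482 reads per library. It had 21.6, 11.9 and 14.2 CPM in the control libraries and 9.76, 9.54 and 8.23 CPM in the caBmpr1a libraries. The caBmpr1a values were close together and below every control value, and control replicate 1 stood well above the other 2. The fold was 0.577 (95% interval from 0.401 to 0.830, log2 fold change -0.79, standard error 0.23, edgeR adjusted p = 0.328). The size depended on control replicate 1. Without it the log2 fold change was -0.52, in the 4 libraries without Y-linked reads it was -0.41 (edgeR adjusted p = 0.356), and in the remaining pair it was -1.34. The exact two-sided permutation test again gave p = 0.1.

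*Csf1* (chromosome 3, 107741048 to 107760469, reverse strand) had 11.3, 18.1 and 9.98 CPM in control and 11.05, 12.3 and 8.36 CPM in caBmpr1a libraries. The groups overlapped, and only control replicate 2 stood apart. The fold was 0.805 (95% interval from 0.537 to 1.21, edgeR adjusted p = 0.719), and without control replicate 2 the log2 fold change was -0.011. *Kitl* (chromosome 10, 100015824 to 100100412, forward strand) had 11.8, 25.9 and 16.7 CPM in control and 17.9, 31.7 and 22.7 CPM in caBmpr1a libraries. The spread within each group was wider than the gap between the groups, and replicate 2 was the highest library of both. The fold was 1.33 (95% interval from 0.822 to 2.15, edgeR adjusted p = 0.69). The log2 fold change moved between 0.17 without caBmpr1a replicate 2 and 0.75 without control replicate 2.

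The lipase inhibitor *Angptl4* (chromosome 17, 33774900 to 33781575, reverse strand) had the lowest fold of the 10, and an uneven control group. It had 35.1, 29.2 and 10.4 CPM in control replicates 1, 2 and 3 and 15.5, 10.7 and 11.7 CPM in the caBmpr1a libraries. Control replicate 3 was the lowest of all 6 libraries, whereas the other 2 control libraries were above every caBmpr1a library. The fold was 0.506 (95% interval from 0.273 to 0.940, log2 fold change -0.98, standard error 0.39, edgeR adjusted p = 0.475). Without control replicate 3 the log2 fold change was -1.35 (edgeR adjusted p = 0.112), without control replicate 1 it was -0.66, and in the 4 libraries without Y-linked reads it was -0.57. The vasoconstrictor *Edn1* (chromosome 13, 42301270 to 42307989, forward strand) had 9.77, 10.9 and 5.75 CPM in control and 8.53, 10.2 and 14.4 CPM in caBmpr1a libraries. Only the lowest and the highest library fell outside a shared range. The fold was 1.25 (95% interval from 0.799 to 1.97, edgeR adjusted p = 0.738), and without control replicate 3 the log2 fold change was 0.088. For the 6 members whose groups overlapped, the exact two-sided permutation test gave p-values between 0.3 and 0.6. In the 4 libraries without Y-linked reads, log2 fold changes were 0.18 for *Vegfa*, 0.13 for *Vegfc* and 0.26 for *Kitl*. They were -0.23 for *Csf1* and 0.205 for *Edn1*.

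**Figure D3:**
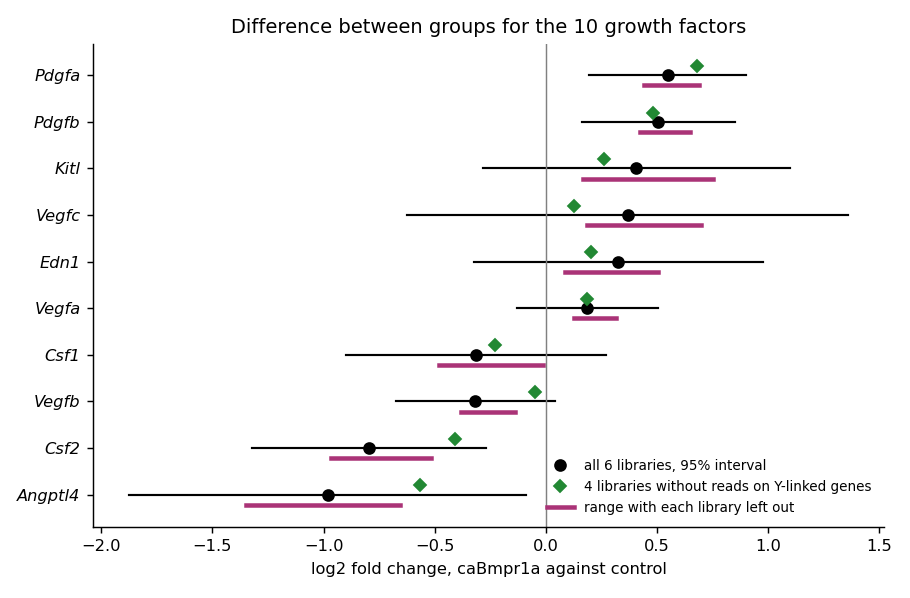
Log2 fold changes (x axis, caBmpr1a against control) of the 10 growth factors with their 95% interval over 6 libraries (black), the value in the 4 libraries that lack Y-linked reads (green) and the range with each library left out (purple). *Pdgfa*, *Pdgfb*, *Csf2* and *Angptl4* have intervals on a single side of 0, and the green point of *Vegfb* is at -0.049.

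Markers of endothelial cells moved with *Pdgfb* and *Kitl* from library to library, and less closely with *Edn1*. Control replicates 1 and 3 had the lowest summed endothelial level (447 and 482.5 CPM) and also the lowest *Pdgfb*. Replicate 2 of caBmpr1a had the highest of both (898 CPM), but its *Edn1* (10.2 CPM) was below that of control replicate 2 (10.9 CPM, at 681 CPM of markers). It also had the highest *Kitl*, *Vegfa*, *Vegfc* and *Pdgfa*. Control replicate 1, with the lowest marker sum, had the lowest *Kitl*. The lowest *Vegfa* and *Pdgfa* were in control replicate 3 and the lowest *Vegfc* in caBmpr1a replicate 1. Per 100 CPM of the 12 endothelial markers, *Pdgfb* stood at 6.24, 5.49 and 5.90 in the control libraries and at 6.70, 5.51 and 6.19 in the caBmpr1a libraries, values that overlapped (exact permutation test of the log2 ratio, two-sided, p = 0.6, n = 3). *Pdgfa* and *Vegfb* lost their separation too. By the same ratio *Pdgfa* was at 5.08 to 8.67 in control and 6.51 to 7.17 in caBmpr1a libraries (exact permutation test, p = 0.7, n = 3), and *Vegfb* at 8.83 to 15.9 and 5.72 to 9.21 (exact permutation test, p = 0.2, n = 3). The loss was thus not particular to *Pdgfb*. *Esam*, which had the highest CPM of these markers, was nearly level between the groups, and without it the ratio of *Pdgfb* was between 7.36 and 10.6 in control and between 6.73 and 8.94 in caBmpr1a libraries. *Kitl* per 100 CPM of the 12 markers was 2.64 to 3.81 in control and 2.98 to 3.53 in caBmpr1a libraries. Without *Esam* its ratio was 4.5 to 5.11 in control and 3.98 to 4.31 in caBmpr1a libraries. It was thus lower in the latter without overlap, opposite to the direction of its CPM. Per 100 CPM of all 12 markers, *Edn1* was 1.19 to 2.19 and 1.13 to 2.04. For *Csf2* the same ratio was 1.75 to 4.84 in control and 1.06 to 1.63 in caBmpr1a libraries. The marker sum was mostly higher in caBmpr1a libraries, so on average dividing by it lowers their values for every gene. A gene with a moderately higher CPM in those libraries thus comes closer to control by this ratio, whatever its source. The ratio therefore cannot show where the RNA of *Pdgfb* or *Pdgfa* came from. The CPM of *Csf2* was already lower in caBmpr1a libraries, so its lack of overlap by this ratio is not a separate result. *Csf1*, whose CPM overlapped, was at 2.07 to 2.66 and 1.19 to 1.84 by this ratio. The part of endothelial RNA in these differences was not tested.

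**Figure D4:**
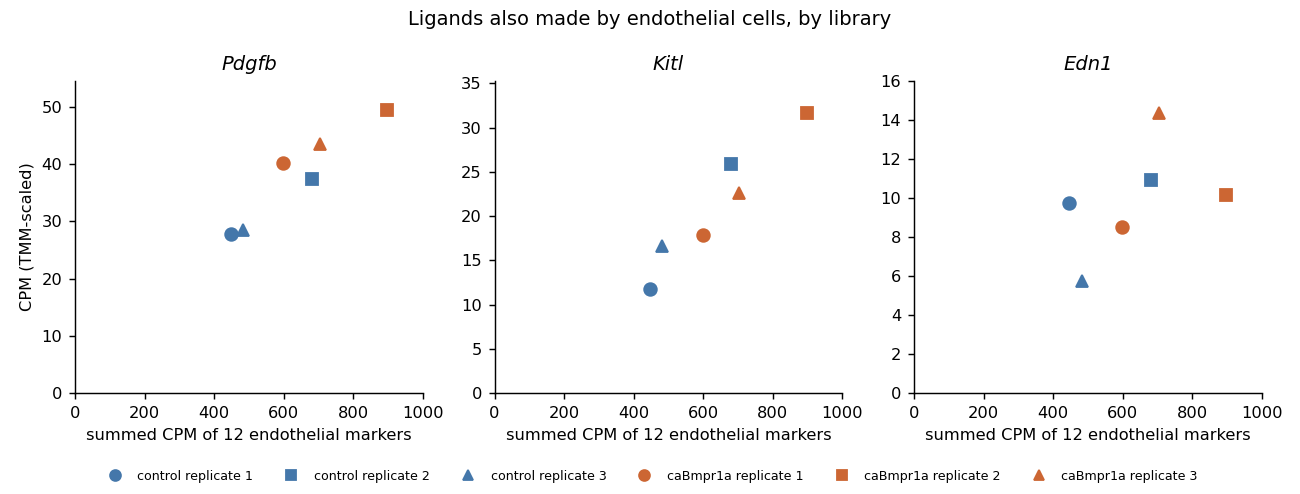
CPM of *Pdgfb*, *Kitl* and *Edn1* (y axis) against the summed CPM of 12 endothelial markers (x axis), with 1 symbol per library. Replicate 2 of caBmpr1a, at 898 CPM of endothelial markers, has the highest *Pdgfb* and *Kitl*, and control replicate 1, at 447 CPM, has the lowest.

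Of the receptors of these factors, 0 of 13 tested genes passed the test, and which cells their RNA came from was not tested. The median log2 fold change was 0.57, with 11 of 13 positive. The most abundant per kilobase in control were *Nrp1*, a co-receptor for VEGF-A and semaphorins (126 CPM per kilobase), *Csf2ra*, the GM-CSF receptor α chain (16.2), and *Kdr* (6.67). *Nrp1* had 662, 782 and 798 CPM in control and 598, 575 and 386 CPM in caBmpr1a libraries, so that it was lower in each of the latter (log2 fold change -0.52, edgeR adjusted p = 0.429). *Kdr*, the main VEGF-A receptor of endothelium, was at 36.4 ± 17.3 and 55.2 ± 17.2 CPM (SD, n = 3, log2 fold change 0.60, edgeR adjusted p = 0.624). *Csf2ra* was at 29.9 ± 7.07 and 28.2 ± 4.52 CPM (log2 fold change -0.084, edgeR adjusted p = 0.912). *Ednrb*, an endothelin receptor picked once its values were known, had 6.05, 9.001 and 5.90 CPM in control and 11.4, 14.0 and 13.4 CPM in caBmpr1a libraries. Its log2 fold change was 0.89 (edgeR adjusted p = 0.215), and it passed in DESeq2 (adjusted p = 0.0229).

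The most abundant related ligand was *Il34*, an alternative ligand of the CSF1 receptor. Of 15 such genes with a row, 12 were tested, 0 passed, and the median log2 fold change was 0.44. *Il34* was at 25.3 CPM per kilobase in control, well above *Csf1*, with 50.8, 43.0 and 47.6 CPM in control and 40.4, 38.6 and 38.8 CPM in caBmpr1a libraries. Every caBmpr1a value was below every control value, by little (fold 0.834, log2 fold change -0.26, edgeR adjusted p = 0.499). *Flt3l* and *Edn3* followed at 5.46 and 3.57 CPM per kilobase, with log2 fold changes of 0.22 for each (edgeR adjusted p = 0.764 and 0.741).

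Of 13 genes for processing enzymes and partners of these ligands, 0 passed and the median log2 fold change was 0.23. The most abundant was *Ece1*, the enzyme that cuts endothelin 1 from its precursor, at 62.7 CPM per kilobase in control. It had 246, 328 and 332 CPM in control and 427, 551 and 553 CPM in caBmpr1a libraries, a fold of 1.69 with no overlap (log2 fold change 0.76, standard error 0.17, edgeR adjusted p = 0.19). DESeq2 gave *Ece1* a log2 fold change of 0.77 with an adjusted p of 0.00643. *Furin*, a protease that matures PDGF and VEGF-C precursors, had a log2 fold change of -0.24, and *Adam17*, a sheddase of membrane-bound ligands, of -0.20 (edgeR adjusted p = 0.549 and 0.673).

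*Vegfa*, *Angptl4* and *Edn1* are known targets of hypoxia-inducible factors (HIF), and *Angptl4* of the fatty acid receptors of the PPAR family, so other targets of both were read from the same fit. Of 14 other HIF targets, 0 passed, 7 had a positive log2 fold change and the median was -0.0067, close to that of all genes. Of 12 other PPAR targets, 0 passed and 10 had a negative log2 fold change, with a median of -0.44. The 12 AT2 markers had a similar median of -0.43, with 1 positive. Over all 16723 genes tested, 8160 were positive. Among the PPAR targets, *Cd36*, *Plin2* and *Acot1* were picked with their values known. *Cd36*, which takes up fatty acids, had 1605, 1655 and 1608 CPM in control and 1119, 866 and 642 CPM in caBmpr1a libraries (log2 fold change -0.89, edgeR adjusted p = 0.198, DESeq2 adjusted p = 0.00316). *Plin2*, a coat protein of lipid droplets, had 218, 257 and 178 CPM in control and 171, 139 and 107 CPM in caBmpr1a libraries (log2 fold change -0.65, edgeR adjusted p = 0.364). *Acot1*, an acyl-CoA thioesterase, had 394, 341 and 125 CPM in control and 153, 145 and 104 CPM in caBmpr1a libraries, and thus shared with *Angptl4* a low value in control replicate 3.

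**Figure D5:**
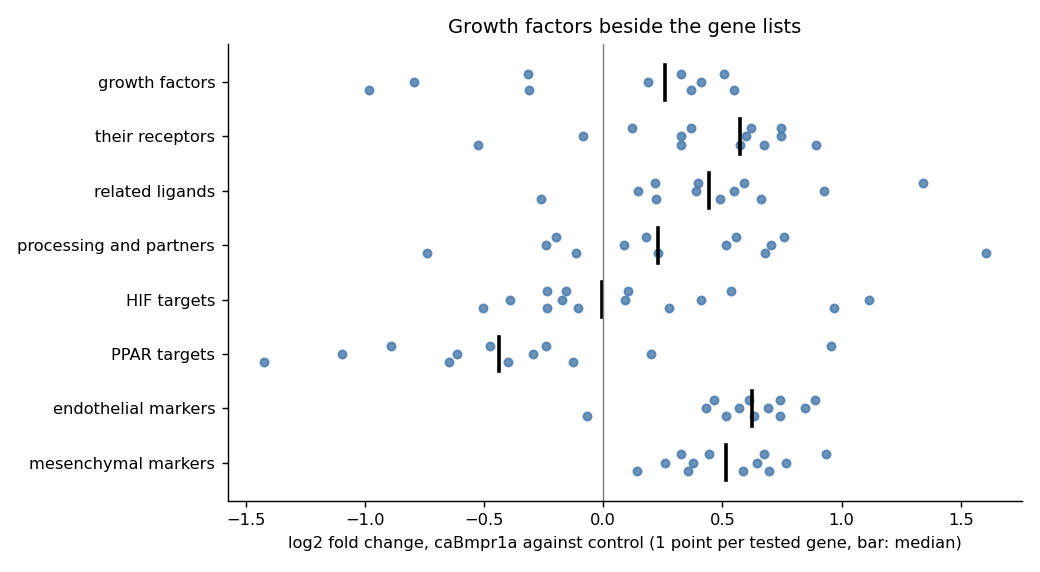
Log2 fold changes (x axis, caBmpr1a against control) of every tested gene in 8 lists, 1 point per gene, with the median as a bar. The medians are 0.26 for the growth factors, 0.57 for their receptors, -0.0067 for HIF targets, -0.44 for PPAR targets and 0.62 for endothelial markers.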

How the data were processed

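mRNA from FACS-sorted AT2 cells was sequenced as paired reads, with 3 control and 3 caBmpr1a libraries. By the methods and the file header, the authors trimmed the reads, aligned them to mm10 with HISAT2, removed duplicates with SAMtools and counted over exons with featureCounts 1.5.3. The methods state that fragments were counted. The authors deposited raw counts for 24421 genes, not normalized, with the exon length of each gene. The command in the file header sets no option for strand or read pairs. Even numbers made up 56.9% to 60.8% of the counts from 1 to 20, so mates were probably counted separately and low counts are less precise than they look. No exon of the 10 genes overlaps another gene of the table.

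The comparison used edgeR 4.0.16 (R 4.3.3): TMM factors, filterByExpr (minimum count 10) and the quasi-likelihood F test on group, with Benjamini-Hochberg adjustment over 16723 genes and calls at an adjusted p under 0.05. DESeq2 1.42.0, the package named in the methods, limma-voom (limma 3.58.1), other scalings, filters, thresholds and covariates, halved counts and each library left out were alternatives. Permutation tests used log2(CPM + 0.5), or shares and log2 ratios as stated. The standard error is the log2 fold change divided by the square root of F, and 95% intervals follow from it. The scripts were tested on simulated data. Every pair of libraries of a group differed by more than counting noise. Groups and replicate numbers come from the sample titles.

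The 10 members and the gene lists were chosen with earlier results of these data known. Named were all members, list genes that passed the test, the 3 most abundant receptors, related ligands and processing genes per kilobase in control, and the 3 genes most like each of the 3 most abundant members, of which 1 is not reported here. Any other gene named (*Ednrb*, *Cd36*, *Plin2*, *Acot1*, *Csf1r*) was picked with its values known.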

Additional observations from a re-analysis of the deposited data

How the results depend on the processing

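No member of the 10 was called under any of 19 settings (0 higher and 0 lower), and each kept the sign of its log2 fold change in each of 17 other fits. The lowest adjusted p-values of members, all from edgeR's test with Y-linked reads as a factor, were 0.0753 for *Pdgfa*, 0.0882 for *Pdgfb* and 0.0979 for *Csf2*. Over these alternatives the adjusted p ran up to 0.781, 0.803 and 0.781. Per summed endothelial markers, a measure chosen after seeing the data, the log2 difference of the 6 members with a positive fold change turned for *Vegfa* (-0.28), *Vegfc* (-0.19), *Kitl* (-0.012) and *Edn1* (-0.12), and without *Esam* for all 6: *Pdgfa* (-0.12), *Pdgfb* (-0.15), *Vegfa* (-0.48), *Vegfc* (-0.40), *Kitl* (-0.22) and *Edn1* (-0.32). The other 4 members kept their sign in both. The log2 difference per marker sum is between group means of log2 ratios, and its sign was set against that of the edgeR log2 fold change, a different measure. The marker sum was mostly higher in caBmpr1a libraries, so dividing by it lowers the difference in mean log2 CPM of every member by the same amount. Whether a member turned thus depended on the size of its own fold change, and the 4 members already negative could not turn. Why the markers differed was not tested.

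Over all genes, 40 were called higher and 2 lower. The numbers were 62 and 5 without an expression filter, where more genes were tested, 198 and 88 in DESeq2, 213 and 210 with Y-linked reads as a factor, and 73 and 40 in the 4 libraries without such reads. The lower calls were 1 with upper-quartile scaling, library size only, limma-voom or age as a factor, and 6 at an adjusted p under 0.1. With each library left out, between 6 and 59 genes were higher and between 0 and 4 lower. Scaling by library size only set the median of all genes at 0.12. Of the lists, DESeq2 called 1 receptor (*Ednrb*), 1 processing gene (*Ece1*) and 1 PPAR target (*Cd36*). With Y-linked reads as a factor *Nrp1* was 1 receptor called lower, and *Ece1* and *Cd36* passed again. In the 4 libraries *Csf1r* was 1 receptor called higher (log2 fold change 0.82). The cause of these differences was not tested.

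The replicate numbers do not pair the libraries: deviations from the group means correlated by -0.32, 0.25 and -0.54 for numbers 1, 2 and 3, and 1 of 6 libraries was most like that of its own number. With the replicate block 36 genes were called higher and 5 lower, and the log2 fold change was 0.55 for *Pdgfa* and -0.75 for *Csf2*. Depth limits *Vegfc* most, at 28 to 93 reads per library. With 3 libraries per group, differences of the size seen here did not pass after adjustment, which does not show that they are absent.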

Other observations

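Among the genes whose log2 CPM followed the 3 most abundant members most closely over the 6 libraries were *Trpc6* and *Ly6a* for *Vegfa* (Pearson's r of 0.99 each), *Mpv17*, *Hs1bp3* and *Serpinb6a* for *Vegfb* (1.00, 0.99 and 0.99) and *Fndc4*, *Fibin* and *Nrxn2* for *Pdgfa* (0.99 each). These are descriptions over 6 libraries that share depth and cell makeup, and 16, 157 and 36 of 16722 genes had an r over 0.95 with *Vegfa*, *Vegfb* and *Pdgfa*.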
